A study of Homo sapiens with 6 samples.

Results

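Transcripts of 6 genes that tumour cells use to restrain immune attack were followed in HT-1080, a cell line grown from a human fibrosarcoma, which was kept for 24 h with an inhibitor of the kinase IRAK4 or with its solvent. The 6 genes are CD274 (PD-L1), PDCD1LG2 (PD-L2), CD276 (B7-H3), CD47, PVR (CD155) and CMTM6, out of 20683 genes listed in each library. They were found by symbol, all 6 were present, and 5 of them had enough counts for the fit. They were selected on earlier results of this same comparison, in which CD274 was seen to be lower while interferon genes were higher. Their differences between inhibitor and DMSO are therefore given as a description, with no test, and support nothing by themselves. The inhibitor dishes received SLV-8472-01, at a concentration labelled 5 mM (nothing in the data bears on that unit), and the controls 0.1% DMSO. The 3 libraries of a group are called biological replicates by the submitters. P-values compare the difference between groups with the variation between replicates, which is estimated in part from all tested genes. All libraries were read with an amplicon panel in which a short PCR product stands for each gene.

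PD-L1 and PD-L2 are membrane proteins that bind the receptor PD-1 on T cells and dampen their activation. Interferon-gamma induces PD-L1 in many tumour cells through its receptor, the kinases JAK1 and JAK2 and, downstream, the transcription factor IRF1. CMTM6 is a membrane protein that holds PD-L1 at the cell surface and protects it from breakdown in lysosomes, so the amount of PD-L1 protein does not follow from its transcript alone. CD47 binds SIRP-alpha on macrophages and restrains phagocytosis, PVR binds the inhibitory receptor TIGIT and the activating receptor DNAM-1 on lymphocytes, and B7-H3 is a relative of PD-L1 found on many solid tumours. Only transcripts were measured here.

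The libraries held 9162281 to 13184553 counts. DMSO 3 stood apart, with a median absolute log2 deviation from its group of 0.191 per gene, against 0.154 and 0.0986 in DMSO 1 and 2 and 0.0815 to 0.0881 in the inhibitor libraries. Its deviations followed the GC content of the transcripts with a Spearman correlation of -0.491 across 9214 genes, which are not independent, against 0.535 and 0.127 in DMSO 1 and 2 and -0.118 to 0.156 in the inhibitor libraries. Because each deviation is taken from the mean of its own group, a trend in 1 library forces an opposite one in the others. The labelled cell line was checked against markers. VIM averaged 6221 ± 78.9 CPM (counts per 1e6 counts of the library, scaled by the TMM method) in inhibitor libraries and 5839 ± 578 CPM in DMSO libraries (SD, n = 3 each), while THY1, another mesenchymal marker, had 1 count in all. PTPRC and CD3E, which mark blood cells, had no count in any library, and CD14 had 4 counts in the inhibitor group and 2 in the DMSO group, and ITGAM had 1 count in all. The summed level of the 6 immune markers was 247 to 288 CPM in inhibitor libraries and 319 to 369 CPM in DMSO libraries, and nearly all of it was CD68, a lysosomal protein gene that is not restricted to macrophages.

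CD274 was lower in every inhibitor library than in any DMSO library. It had 34.8, 31.0 and 32.7 CPM in inhibitor 1 to 3, from 426, 348 and 314 counts, against 75.1, 72.7 and 75.7 CPM in DMSO 1 to 3, from 960, 955 and 672 counts. The replicates lay close together in both groups, and the gap between the groups was many times the spread within either. The means were 32.8 ± 1.89 CPM in inhibitor libraries and 74.5 ± 1.57 CPM in DMSO libraries (SD, n = 3 each). Counting error alone would give an SD of 1.73 and 2.58 CPM in those groups, so the replicates of this gene differed by about as much as, or less than, the counting of reads allows. The log2 fold change of inhibitor over DMSO was -1.18 (SE 0.122), a level 2.27-fold lower with the inhibitor, which stood at rank 49 from the lowest among the log2 fold changes of 11216 genes tested. DMSO 3, which stood apart over all genes, had a CD274 level close to those of DMSO 1 and 2. In these bulk libraries, fewer cells expressing the gene and less of its RNA per cell cannot be told apart.

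PDCD1LG2 encodes the other PD-1 ligand and lies beside CD274 on chromosome 9. It had 8.74, 5.88 and 7.18 CPM in inhibitor 1 to 3 and 7.43, 11.5 and 7.77 CPM in DMSO 1 to 3, from 66 to 107 and 69 to 151 counts per library. The groups overlapped, since inhibitor 1 was above DMSO 1 and DMSO 3, and DMSO 2 was the highest library. The log2 fold change was -0.30 (SE 0.215). It came to -0.06 without DMSO 2, -0.16 without inhibitor 2, -0.46 without inhibitor 1 and -0.52 with library quality weights, so its size changed with single libraries and with their weighting.

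PVR was also lower with the inhibitor, by less than CD274. It had 195.5, 180.3 and 175.7 CPM in inhibitor 1 to 3, against 306.5, 240.4 and 239.1 CPM in DMSO 1 to 3. The groups did not overlap, and DMSO 1 was the highest library. The means were 184 ± 10.4 CPM in inhibitor libraries and 262 ± 38.5 CPM in DMSO libraries (SD, n = 3 each), with a log2 fold change of -0.51 (SE 0.129), a level 1.43-fold lower with the inhibitor. The PVR transcript has a GC content of 56.7%, and DMSO 1, where GC-rich transcripts tended to be high, was the library that carried most of its spread. With each library's GC trend removed the log2 fold change was -0.47 (SE 0.11), and without DMSO 1 it was -0.39 (SE 0.124). The part of the GC trend in the difference beyond these values was not tested.

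CD47 and CMTM6 showed no separation of the groups. CD47 had 65.7, 63.4 and 62.9 CPM in inhibitor 1 to 3 and 46.6, 56.8 and 73.1 CPM in DMSO 1 to 3. The inhibitor libraries lay within the range of the DMSO libraries, and their SD was 1.47 CPM with inhibitor and 13.3 CPM with DMSO (n = 3 each). Its log2 fold change was 0.13 (SE 0.153), 0.29 without DMSO 3 and -0.02 without DMSO 1, so its direction turned with 1 library. The CD47 transcript is poor in GC at 38.5%, and its highest DMSO level was in DMSO 3, where GC-poor transcripts tended to be high. With the GC trend removed its log2 fold change was 0.08 (SE 0.115). The part of the GC trend in the spread of CD47 was not tested.

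CMTM6 had 51.1, 59.0 and 50.4 CPM in inhibitor 1 to 3 and 44.7, 56.9 and 55.5 CPM in DMSO 1 to 3. The values of both groups interleaved, and the log2 fold change was 0.03 (SE 0.136), or -0.04 without inhibitor 2, -0.08 without DMSO 1 and -0.02 with the GC trend removed. No difference in this partner of PD-L1 was detectable beyond the spread between libraries. CD276 was barely counted, with 0, 1 and 3 counts in inhibitor 1 to 3 and 6, 5 and 0 counts in DMSO 1 to 3. The ratio of inhibitor to DMSO counts was 0.383 with an exact 95% interval of 0.0889 to 1.29, which covers counting error only, so a difference was not detectable at this depth. In an amplicon panel a gene with hardly any counts may be little expressed or poorly amplified, and these cannot be told apart here.

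**Figure D1:**
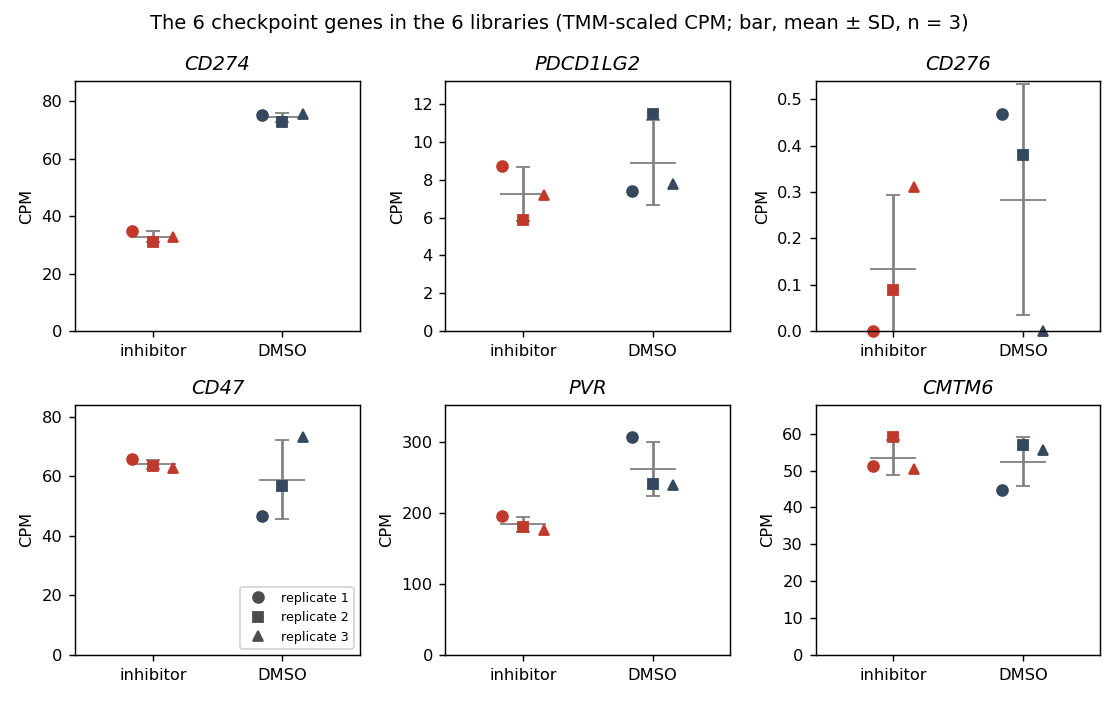
Level of each of the 6 genes in the 3 inhibitor libraries (left, red) and the 3 DMSO libraries (right, dark), in TMM-scaled CPM on axes that start at 0; symbols mark replicates 1 to 3, and the grey line and bars give the mean ± SD. The CD274 values sit at 31.0 to 34.8 CPM with inhibitor and 72.7 to 75.7 CPM with DMSO, PVR is the other gene whose groups do not overlap, and CD276 is close to 0 throughout.

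Of the 6 genes, CD274 and PVR had groups that did not overlap, while 25.5% of all 11216 tested genes had none. The same 2 of 6 met an adjusted p under 0.05 by edgeR in the fit of all genes, both of them lower, against 3.87% of all genes in either direction and 1.92% lower; since the comparison was used to choose the genes, nothing is read from this count. Over 15 processing alternatives the log2 fold change of CD274 lay between -1.23 and -1.12 and that of PVR between -0.59 and -0.39. CD274 met an adjusted p under 0.05 in 15 of the 15, and PVR in 8 of the 15. Of the 6 fits with 1 library left out, PVR met it in 1. All these fits reuse the libraries on which the genes were chosen. Their counts describe the dependence on processing and are no further support.

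CD274 was also set against the other genes inside each library, where scaling plays no part. These ratios reuse the CD274 counts on which the genes were chosen. Lower ratios to genes that changed little follow from the lower CD274 counts, so they are a description and no further support. CD274 had 0.681, 0.526 and 0.647 counts per CMTM6 count in inhibitor 1 to 3, against 1.68, 1.28 and 1.36 in DMSO 1 to 3. Per CD47 count it had 0.53, 0.489 and 0.519 against 1.61, 1.28 and 1.03. Per PVR count, the gene that was lower as well, the ratios were closer, at 0.178, 0.172 and 0.186 with inhibitor against 0.245, 0.302 and 0.316 with DMSO. Per count of its neighbour PDCD1LG2 they were 3.98, 5.27 and 4.55 with inhibitor against 10.1, 6.33 and 9.74 with DMSO. In none of these ratios did the groups overlap. Levels are not compared between genes, because each is read through its own PCR product, which amplifies at its own rate.

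**Figure D2:**
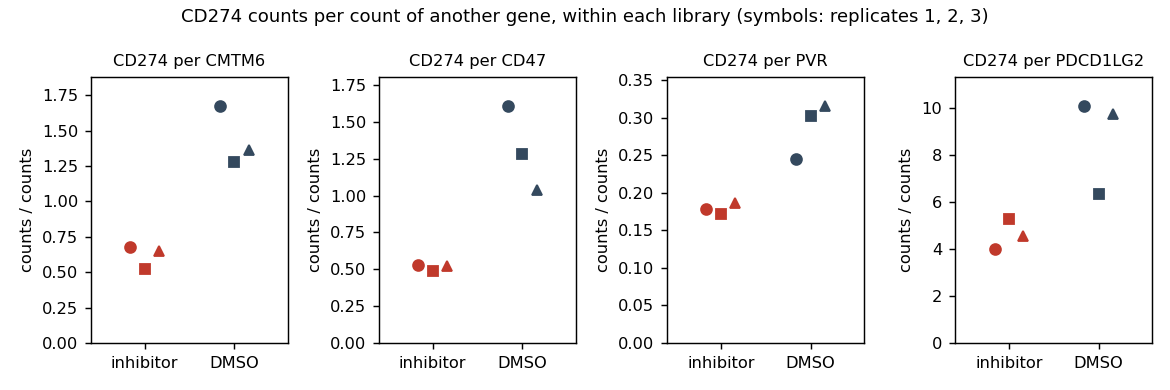
Counts of CD274 divided by counts of CMTM6, CD47, PVR and PDCD1LG2 in the same library (vertical axes, counts per count, from 0), for inhibitor libraries (left, red) and DMSO libraries (right, dark); symbols mark replicates 1 to 3. In all panels every inhibitor library lies below every DMSO library, with the narrowest gap, as a ratio, against PDCD1LG2, at 5.27 in inhibitor 2 and 6.33 in DMSO 2.

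The promoter of CD274 carries letters of the kind that interferon-activated factors bind, which is why it is shown here beside promoters of interferon-stimulated genes that rose. The 250 bases before the RefSeq start of CD274 follow, at chr9:5450292-5450541 on the plus strand of GRCh38.p14; capitals mark matches to the core of the interferon-stimulated response element (ISRE), GAAANNGAAA read on either strand.
CD274: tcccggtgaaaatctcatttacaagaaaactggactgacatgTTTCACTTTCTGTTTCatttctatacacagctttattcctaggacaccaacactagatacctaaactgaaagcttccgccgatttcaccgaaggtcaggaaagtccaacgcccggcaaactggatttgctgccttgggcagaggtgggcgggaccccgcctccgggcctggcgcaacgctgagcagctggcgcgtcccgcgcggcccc

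Stretches of 30 bases around the first such match are given for CD274 (chr9:5450324-5450353, plus strand), IFIT1 (chr10:89392497-89392526, plus strand), IFI6 (chr1:27672329-27672358, minus strand), IFI44 (chr1:78649761-78649790, plus strand) and ISG15 (chr1:1013374-1013403, plus strand), all from RefSeq on GRCh38.p14 with the ISRE core in capitals.
CD274: gactgacatgTTTCACTTTCTGTTTCattt
IFIT1: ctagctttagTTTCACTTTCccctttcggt
IFI6: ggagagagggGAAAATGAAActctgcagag
IFI44: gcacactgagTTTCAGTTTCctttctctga
ISG15: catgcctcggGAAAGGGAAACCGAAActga

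The first core of CD274 and that of IFIT1 are the same 10 bases, GAAAGTGAAA on the strand opposite to the one printed. In CD274 there were 2 overlapping cores, beginning 208 and 202 bases before the start, and 1 match to the GAS motif of STAT factors (TTCNNNGAA), 125 bases before it. The ISRE core occurred in 3.57% of 35116 RefSeq promoter windows of 300 bases and the GAS motif in 7.66%. Of the 5 checkpoint genes with a window, CD274 alone held the ISRE core, and PDCD1LG2 had no window in the table. Of the 9 interferon-induced genes that rose, 8 had a window and 7 of these held it. The E-box CACGTG (7.26% of windows), the EGR core GCGNGGGCG (9.43%), the TEAD motif GGAATG (14.0%) and the AP-1 motif TGANTCA (7.71%), read on both strands, had no match in the CD274 window; PVR held 1 TEAD match, and CMTM6 and 1 of 2 CD276 windows held 1 EGR core each. A match is a run of letters, and binding was not measured.

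Interferon-induced genes, a list of 29 that CD274 is often counted among, rose in part. By edgeR at an adjusted p under 0.05, 9 of the 24 that could be tested were higher and 0 were lower, where 1.95% of all tested genes rose; their median log2 fold change was 0.46, against 0.00 over all tested genes. None fell by DESeq2 or limma-voom either. The list was drawn up with earlier results of these data known, in which interferon genes were higher. Its count and p-values are therefore not independent evidence. IFI6, a mitochondrial antiapoptotic protein gene, had 472, 386 and 119 CPM in inhibitor 1 to 3 and 28.2, 23.3 and 27.9 CPM in DMSO 1 to 3 (log2 fold change 3.62, SE 0.368, edgeR adjusted p = 7.79e-05). IFIT1, an RNA-binding antiviral gene, had 20.7, 18.3 and 7.07 CPM against 1.72, 2.44 and 3.94 CPM (2.57, SE 0.367, edgeR adjusted p = 0.00139). Both were lowest in inhibitor 3 among the inhibitor libraries, while CD274 in inhibitor 3 lay between those in inhibitor 1 and 2.

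IFI27 and IFI44 rose by 2.62 (SE 0.367) and 2.45 (SE 0.264) on the log2 scale, and the other genes that rose were ISG15, MX1, IFIT3, IFIT2 and OAS1. TAP1, a peptide transporter subunit, was at 0.20 (SE 0.134, edgeR adjusted p = 0.445) and B2M, the light chain of MHC class I, at -0.09 (SE 0.187, edgeR adjusted p = 0.832), neither past the threshold. Other genes of antigen presentation and the guanylate-binding proteins, chosen after their values were seen, lay on both sides of 0 and did not pass by edgeR. The immunoproteasome subunit genes PSMB9 and PSMB8 were at 0.49 (SE 0.188, adjusted p = 0.164 by edgeR) and 0.28 (SE 0.134, adjusted p = 0.262 by edgeR), and the PSMB8 groups did not overlap. GBP1 was at 0.00 (SE 0.136, adjusted p = 0.997 by edgeR) and GBP2 at -0.34 (SE 0.148, adjusted p = 0.225 by edgeR), with groups that did not overlap for GBP2. The chemokine gene CXCL10, also chosen after its values were seen, had 18 counts in the inhibitor group and 0 in the DMSO group. With 3 counts over the group put in place of the 0, the scaled ratio was 6.31, which leaves out the counting error of the 18. Without DMSO 3, 13 genes of the list were higher and 2 lower. That fit also called many more genes over all, 1227 of 11386 higher and 1269 lower.

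Of the route that leads from interferon receptors to IRF1, 1 of 16 tested genes rose and none fell by edgeR (median log2 fold change 0.11), where 1.95% of all tested genes rose, so that 1 gene is no result about the route; 2 rose by DESeq2 and none by limma-voom, with none lower by either. The gene was IRF9, a subunit of the complex that reads the ISRE, with 15.8, 21.4 and 12.7 CPM in inhibitor 1 to 3 and 8.92, 10.8 and 9.57 CPM in DMSO 1 to 3 (log2 fold change 0.77, SE 0.194, edgeR adjusted p = 0.0412). It was not called by limma-voom, or by edgeR without inhibitor 1 or 2 or without DMSO 1 or 2 (edgeR adjusted p = 0.139, 0.271, 0.0716 and 0.106). IRF1, the factor closest to CD274 on this route, had 10.0, 12.2 and 10.5 CPM with inhibitor and 11.4, 10.4 and 11.03 CPM with DMSO, and its log2 fold change was 0.00 (SE 0.158, edgeR adjusted p = 0.998). JAK2, which lies near CD274 on chromosome 9, was at 0.34 (SE 0.209, edgeR adjusted p = 0.401).

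Among 25 tested genes reported to regulate CD274 transcription or its mRNA, 6 fell and none rose by edgeR, with the same counts by DESeq2 and limma-voom; the median log2 fold change was -0.23, and 1.92% of all tested genes fell. The list was drawn up with earlier results of these data known, so its direction is not independent evidence. MYC, a transcription factor gene, had 44.9, 45.7 and 42.2 CPM in inhibitor 1 to 3 and 110, 104 and 84.5 CPM in DMSO 1 to 3 (log2 fold change -1.17, SE 0.133, edgeR adjusted p = 0.000224). Its groups did not overlap, and its log2 fold change was close to that of CD274. The immediate-early factor gene EGR1 was at -4.12 (SE 0.238) and the stress-induced factor gene ATF3 at -2.29 (SE 0.182).

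Also lower, and chosen after their values were seen, were ZFP36L1, whose protein promotes decay of mRNAs with AU-rich elements, at -1.09 (SE 0.155, edgeR adjusted p = 0.00137), and ATF4, the factor of the amino acid response, at -0.78 (SE 0.126, edgeR adjusted p = 0.00347). ATF4 was not called without inhibitor 2. ZFP36, which encodes a protein of the same family as ZFP36L1, was at -0.20 (SE 0.143, edgeR adjusted p = 0.485). The NF-kB subunit genes NFKB1 and RELA were at -0.02 (SE 0.136) and -0.12 (SE 0.153), and HIF1A, the hypoxia factor gene, at -0.23 (SE 0.12, edgeR adjusted p = 0.305). RELA passed without DMSO 3, at -0.30 (edgeR adjusted p = 0.0327). JUN had 11 counts in the inhibitor group and 9 in the DMSO group and was not tested. Without DMSO 3, 10 genes of the list were lower and 1 was higher. Over all genes that fit called many more as well, 1269 of 11386 lower and 1227 higher.

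**Figure D3:**
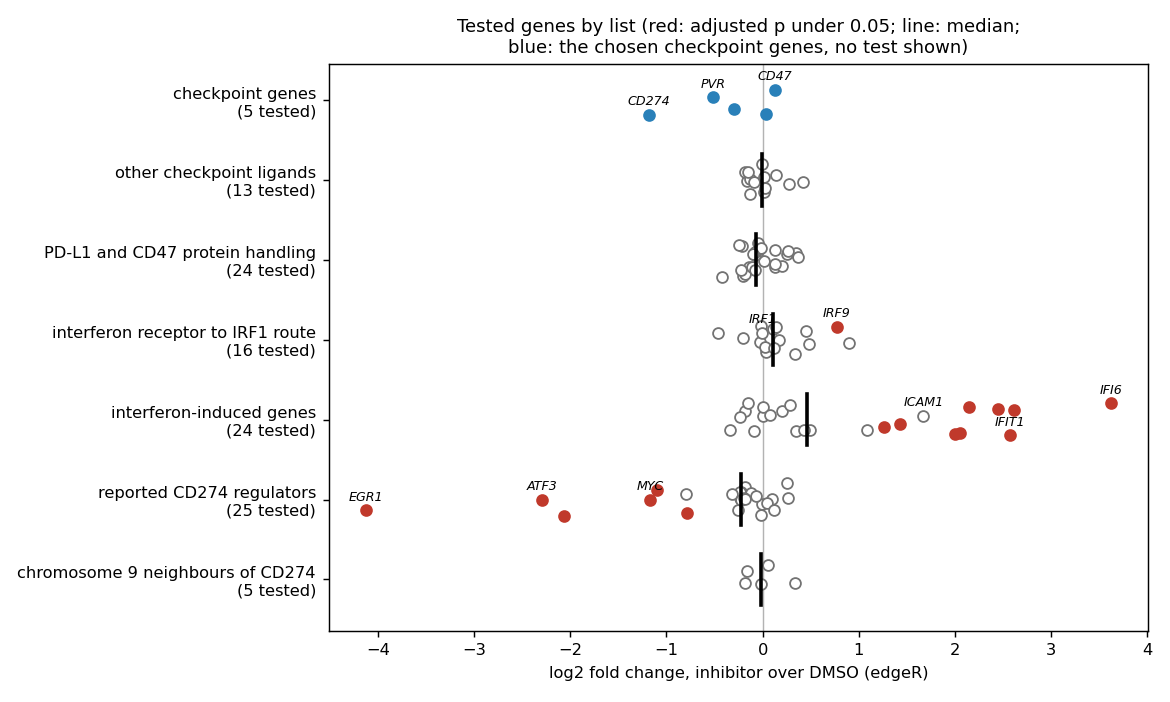
Log2 fold change of inhibitor over DMSO (horizontal axis, edgeR) for the tested genes of each list, 1 point a gene; red points passed an adjusted p under 0.05, open points did not, black lines are list medians, and blue points are the checkpoint genes, for which no test is shown. CD274 at -1.18 lies on the other side of 0 from the interferon-induced genes that passed, such as IFIT1 at 2.57, and near MYC at -1.17.

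The remaining checkpoint and costimulatory ligands gave no call by edgeR. Of 35 listed, 33 were in the files and 13 had enough counts to test. None of the 13 passed, where 3.87% of all tested genes did, so a count of 0 says little about the list. None had an unadjusted p under 0.05 by edgeR or was called by DESeq2 or limma-voom. Limma-voom with quality weights called 1 lower, as did edgeR without DMSO 3. Over all genes those fits called 2606 of 11216 and 2496 of 11386. The median log2 fold change was -0.01. These included, as values chosen after they were seen, NECTIN2, a relative of PVR that binds the receptor PVRIG and, more weakly, TIGIT, at -0.14 (SE 0.153), and HLA-E, the ligand of NKG2A, at 0.02 (SE 0.139). NECTIN2 averaged 66.9 ± 6.28 CPM in inhibitor libraries and 73.4 ± 15.5 CPM in DMSO libraries (SD, n = 3 each). CD80, VTCN1, HHLA2, HLA-G and FGL1 had no count in any library.

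Genes whose proteins process PD-L1 or CD47 after synthesis also gave no call by edgeR. Of 24 tested, none passed, where 3.87% of all tested genes did, so a count of 0 says little about the list. None was called by DESeq2 or limma-voom. By edgeR 4 had an unadjusted p under 0.05. The share of 3.87% is for adjusted p and cannot be set beside those 4, so nothing is read from them. Limma-voom with quality weights, like edgeR without DMSO 3, called 1 higher and 2 lower. Over all genes those fits called 2606 of 11216 and 2496 of 11386, so these calls are no result about the list. The median log2 fold change was -0.07. CMTM4, the relative of CMTM6 that can stand in for it, had 39 counts in the inhibitor group and 32 in the DMSO group, at 0.35 (SE 0.357, edgeR adjusted p = 0.647). QPCTL, the enzyme that modifies CD47 so that SIRP-alpha binds it, was at -0.10 (SE 0.143, edgeR adjusted p = 0.746).

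Genes around CD274 on chromosome 9 gave no call. Of 9 listed neighbours 5 were tested, too few for a count to be read against the 3.87% of all genes, and none passed by edgeR, at an unadjusted p under 0.05 (0 genes), or by DESeq2 or limma-voom (median log2 fold change -0.01). RCL1 was at -0.16 (SE 0.163), PLGRKT, which encodes a plasminogen receptor, at -0.01 (SE 0.168), RIC1 at 0.05 (SE 0.14) and ERMP1 at -0.18 (SE 0.127), beside JAK2 given above. INSL4, a relaxin family gene, had 17 counts in each group and was not tested.

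The genes whose profile over the 6 libraries was closest to that of CD274 were looked for among 9065 tested genes with a mean of at least 5 CPM, by the root mean square difference of log2 CPM after each gene was centred on its own mean. The closest were ABCA1, a cholesterol exporter gene, at a difference of 0.0516, TAGLN3 at 0.0766, IL24, a cytokine gene, at 0.0875, AMIGO2 at 0.0954 and DLC1 at 0.105. ABCA1 had 21.8, 20.6 and 22.7 CPM in inhibitor 1 to 3 and 51.6, 46.7 and 50.8 CPM in DMSO 1 to 3. The log2 fold changes of these 5 genes lay between -1.25 and -1.10, which the search itself sets. For PDCD1LG2 the closest were BBS10 at 0.091, NTMT1 at 0.102 and ATXN7L2 at 0.108, genes whose groups overlapped as its own did. A shared profile over 6 libraries is a description of those libraries.

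**Figure D4:**
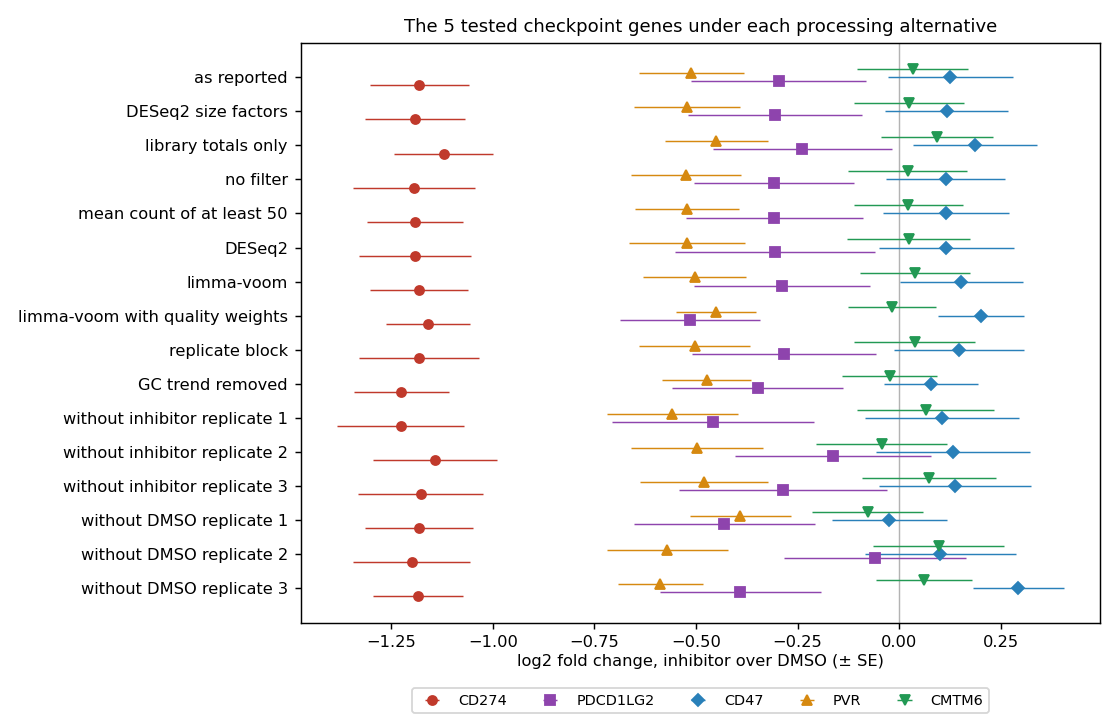
Log2 fold change of inhibitor over DMSO with its SE (horizontal axis) for the 5 tested checkpoint genes, as reported (top) and under each of 15 processing alternatives (rows). CD274 stays between -1.23 and -1.12 and PVR between -0.59 and -0.39, while PDCD1LG2 ranges from -0.52 to -0.06 and CD47 and CMTM6 lie on both sides of 0.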

How the data were processed

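Libraries were made with the Ion AmpliSeq Transcriptome Human Gene Expression Panel, per the labels' protocols. What the authors deposited are raw counts, 1 for each gene symbol. HTSeq, DESeq2 1.20.0 and hg19 appear in the submitters' processing notes with no role stated; no source used here gives the aligner. No molecular identifiers are named, so intervals cover counting error only. Counts were fitted with edgeR 4.0.16 in R 4.3.3 (TMM, filterByExpr with a minimum count of 10, quasi-likelihood test of group, Benjamini-Hochberg over 11216 genes, threshold 0.05). SE is the absolute log2 fold change divided by the root of F. Alternatives used DESeq2 1.42.0, limma 3.58.1 and the GC content of GENCODE transcripts (matched for 99.2% of tested genes). Those other than leaving 1 library out were also run on simulated counts. The simulated counts held no GC trend and no outlying library, so they do not show how the alternatives handle either. Members and gene lists were chosen with earlier results of these data known. Cell line markers came from a fixed list and are shown in part. Named were all 6 members and up to 4 called genes of each list with the largest change. A fixed set (IRF1, JAK2, MYC, JUN, NFKB1, RELA, HIF1A, ZFP36, CMTM4, QPCTL, IFIT1, TAP1, B2M), the chromosome 9 neighbours with a count and the closest profiles were added. The remaining interferon-induced genes that rose and ligands with no count are also named. Any other gene is marked in the text as picked on its values. Some genes that this rule covers are not reported here. Promoters are from RefSeq (GRCh38.p14), another build than the files.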

Additional observations from a re-analysis of the deposited data

How the results depend on the processing

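Across 15 alternatives each, the log2 fold changes of the 5 tested checkpoint genes moved by less than their replicate SD; CD274 stayed at -1.23 to -1.12. The 434 changed genes became 831 with no filter, 2606 with limma-voom quality weights, 720 with GC trends removed and 99 to 2496 with 1 library left out (99 without inhibitor 2, 2496 without DMSO 3); without inhibitor 1, inhibitor 3 or DMSO 2 it was 125, 150 and 185. With library totals only, 336 were higher and 163 lower, against 219 and 215. Called in the lists with quality weights were 1 other ligand, 3 handling, 5 route, 14 interferon-induced and 12 regulator genes. With 1 library left out these were 0 to 1, 0 to 3, 0 to 4, 7 to 15 and 5 to 11. With no filter 1 handling and 3 route genes were called; 2 route genes were called with library totals, DESeq2 or GC trends removed, and 0 with limma-voom.

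Signs turned for IRF1 with library totals (0.0588), quality weights (0.0418) and GC trends removed (0.0343), for NFKB1 (0.0386) and PLGRKT (0.0462) with library totals, for PLGRKT with limma-voom (0.0035) and for B2M with quality weights (0.0063). With 1 library left out the log2 fold changes spanned -0.0906 to 0.0572 for IRF1, -0.12 to 0.0702 for NFKB1, -0.22 to 0.0202 for QPCTL, -0.28 to 0.13 for B2M, -0.27 to 0.0198 for RCL1, -0.15 to 0.0681 for PLGRKT and -0.0531 to 0.15 for RIC1. The causes were not tested. DESeq2 called 594 genes.

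The replicate numbers pair nothing by the labels: deviations of same-numbered libraries correlated at -0.0414, -0.0378 and -0.0882 across genes, and no inhibitor library correlated best with its own number. With a replicate block 327 genes were called and CD274 was at -1.18. CD276 and PDCD1LG2 are limited by depth, with 4 and 242 counts over the inhibitor libraries and 11 and 315 over those with DMSO.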
